A study of Mus musculus with 20 samples.

Results

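Eosinophils carry large secondary granules packed with cationic proteins that are toxic to parasites and to host tissue. Prg2 encodes major basic protein, which forms the crystalline core of the granule, and Prg3 encodes its close homologue. Epx encodes eosinophil peroxidase, a heme enzyme of the granule matrix that makes hypohalous acids from hydrogen peroxide, and the Ear genes encode the rodent eosinophil-associated ribonucleases of the RNase A family. Most of their transcription takes place while the granules are built in eosinophil precursors, and the stored proteins are released later, when the mature cell is activated.

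The granule protein transcripts were taken as every probe set whose platform gene symbol was Epx, Prg2 or Prg3, or whose symbol field held an Ear gene with a number. The rule used names and no measured value. It found 4 genes, each with 1 probe set, among 20628 probe sets that were no array controls: 1449136_at for Epx, 1422873_at for Prg2, 1449924_at for Prg3 and 1422412_x_at for Ear3. Each carried a single gene symbol. All 4 passed the filter on dim probe sets, as did 12903 probe sets in all. The Ear genes are a family of near-identical copies and the suffix of the Ear3 probe set marks probes shared with other transcripts, so its signal cannot be assigned to Ear3 alone.

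The cells were eosinophils grown for 12 days from the bone marrow of Dusp5-/- mice (KO) and Dusp5+/+ mice (WT), 5 mice of each genotype. The Dusp5 protein is a phosphatase that inactivates the MAP kinase ERK in the nucleus. The 4 groups of 5 arrays were KO cells given IL-33, an alarmin cytokine that activates eosinophils, at 25 ng/ml for 4 hours, WT cells given the same, KO cells left in medium and WT cells left in medium. The cultures are a model of eosinophils ripening outside the body, and neither the strain nor the cell type in which Dusp5 was deleted is given in the sources used here. Array number n of a genotype in IL-33 and in medium is treated as the same mouse.

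Values are log2 expression as the authors deposited them, and arrays of a group correlated at r = 0.987 or more. Dusp5 lay between 4.02 and 5.15 on KO arrays and between 7.85 and 10.23 on WT arrays, and the arrays of both genotypes fitted their labels. WT mouse 2 stood apart from the other WT mice: it had the lowest value of its group for all 4 granule transcripts, on both of its arrays. Genotype differences that it moved by more than 1.5 times are given with and without it. Markers of the eosinophil surface were present on every array. Siglecf averaged 10.01 ± 0.14 in KO cells with IL-33, 9.75 ± 0.24 in WT cells with IL-33, 10.61 ± 0.32 in untreated KO cells and 10.46 ± 0.26 in untreated WT cells (SD, n = 5 each). Genes of other cell types were above the dim filter as well, among them the neutrophil and myeloid precursor gene Mpo, at group means between 8.19 and 8.70, so the cultures were not shown to be pure.

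The promoters of Epx and Prg3, the 2 members matched in the promoter table and the pair that varied most closely together, are shown, from RefSeq on GRCm38.p6, from 250 bases before the annotated start to 50 after it, 5′ to 3′ on the gene's strand. Capitals mark matches to GATAA on either strand, the core recognised by GATA factors, of which Gata1 is needed for the eosinophil lineage.
Prg3, chr2:84987965-84988264, plus strand: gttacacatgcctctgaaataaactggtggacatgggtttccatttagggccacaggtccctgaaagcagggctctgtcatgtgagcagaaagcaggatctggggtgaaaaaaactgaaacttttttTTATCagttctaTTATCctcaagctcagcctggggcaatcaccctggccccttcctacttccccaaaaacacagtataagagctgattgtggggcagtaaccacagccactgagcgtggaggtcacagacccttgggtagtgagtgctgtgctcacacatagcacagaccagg
Epx, chr11:87875487-87875786, minus strand: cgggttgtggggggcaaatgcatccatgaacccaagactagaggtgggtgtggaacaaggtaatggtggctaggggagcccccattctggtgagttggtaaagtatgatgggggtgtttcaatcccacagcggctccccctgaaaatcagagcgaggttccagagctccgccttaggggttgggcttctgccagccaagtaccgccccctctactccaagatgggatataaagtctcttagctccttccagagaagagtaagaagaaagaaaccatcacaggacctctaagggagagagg

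The Prg3 window held 2 GATAA matches, both on the minus strand and so read as TTATC here, at -123 to -119 and at -111 to -107 from the start. At least 2 matches were found in 5.27% of 32851 promoter windows of the same length, and at least 1 in 25.4%. The Prg3 window also held 1 match to TTNCNNAA, the C/EBP core, at -65 to -58 on the gene's strand, a motif found in 40.7% of windows on either strand. The Epx window held no match to GATAA, to TTNCNNAA or to GAGGAA, the PU.1 core, which 28.3% of windows held. These are matches of letters in a window.

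All 4 transcripts lay close to the brightest signal on every array. The highest value on an array lay between 13.83 and 13.99, and Prg2 was itself that highest value on 3 arrays, those of untreated WT mice 1, 3 and 5. Across the 20 arrays Prg2 lay between 0 and 0.27 below the array's maximum, Epx between 0.07 and 1.11, Ear3 between 0.40 and 0.99 and Prg3 between 0.68 and 1.45. Signals this close to the top of the scale may be compressed, and the part of such compression in the results below was not tested.

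Epx in KO cells given IL-33 measured 13.53, 12.89, 13.60, 13.13 and 13.13 in mice 1 to 5, and in WT cells given IL-33 it measured 13.54, 12.85, 13.76, 13.50 and 13.69. In untreated cells it measured 13.54, 13.04, 13.62, 13.21 and 13.26 in KO mice 1 to 5, and 13.57, 13.01, 13.81, 13.54 and 13.67 in WT mice. KO mice 2, 4 and 5 and WT mouse 2 were low in both treatments, and the groups overlapped in every comparison. The means were 13.26 ± 0.30 in KO cells with IL-33, 13.47 ± 0.36 in WT cells with IL-33, 13.34 ± 0.24 in untreated KO cells and 13.52 ± 0.31 in untreated WT cells (SD, n = 5 each). The order of these means from high to low was untreated WT, WT with IL-33, untreated KO and KO with IL-33, and neighbours in it differed by less than the SD of either group.

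Prg3 in KO cells given IL-33 measured 12.93, 12.49, 12.93, 12.64 and 12.69 in mice 1 to 5, against 13.07, 12.61, 13.04, 12.68 and 12.76 in the same mice untreated. In WT mice it measured 13.00, 12.57, 13.09, 12.99 and 13.03 after IL-33, against 13.03, 12.53, 13.20, 13.01 and 13.08 untreated. Prg3 thus marked the same KO mice (2, 4 and 5) and the same WT mouse (2) as low. Its means were 12.73 ± 0.19 in KO cells with IL-33, 12.94 ± 0.21 in WT cells with IL-33, 12.83 ± 0.21 in untreated KO cells and 12.97 ± 0.26 in untreated WT cells (SD, n = 5 each), in the same order as for Epx and again with neighbours differing by less than either SD.

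Prg2 in KO cells given IL-33 measured 13.82, 13.74, 13.84, 13.74 and 13.78 in mice 1 to 5, against 13.82, 13.71, 13.81, 13.72 and 13.75 in the same mice untreated. In WT mice it measured 13.82, 13.69, 13.89, 13.80 and 13.89 after IL-33, against 13.87, 13.62, 13.88, 13.83 and 13.89 untreated. Apart from WT mouse 2 the values hardly varied. Means were 13.78 ± 0.04 in KO cells with IL-33, 13.82 ± 0.08 in WT cells with IL-33, 13.76 ± 0.05 in untreated KO cells and 13.82 ± 0.11 in untreated WT cells (SD, n = 5 each). Both WT groups stood above KO with IL-33 and untreated KO, and neighbours in that order differed by less than the SD of either group.

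Ear3 in KO cells given IL-33 measured 13.21, 12.99, 13.29, 13.09 and 13.24 in mice 1 to 5, against 13.14, 12.98, 13.08, 13.04 and 13.22 in the same mice untreated. In WT mice it measured 13.17, 12.97, 13.50, 13.15 and 13.53 after IL-33, against 13.18, 13.05, 13.42, 13.20 and 13.47 untreated. WT mice 3 and 5 were the high ones, and KO mouse 5 was not low as it was for Epx. Means were 13.16 ± 0.12 in KO cells with IL-33, 13.26 ± 0.24 in WT cells with IL-33, 13.09 ± 0.09 in untreated KO cells and 13.27 ± 0.17 in untreated WT cells (SD, n = 5 each). Their order was that of Prg2, with neighbours again closer than either SD.

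**Figure D1:**
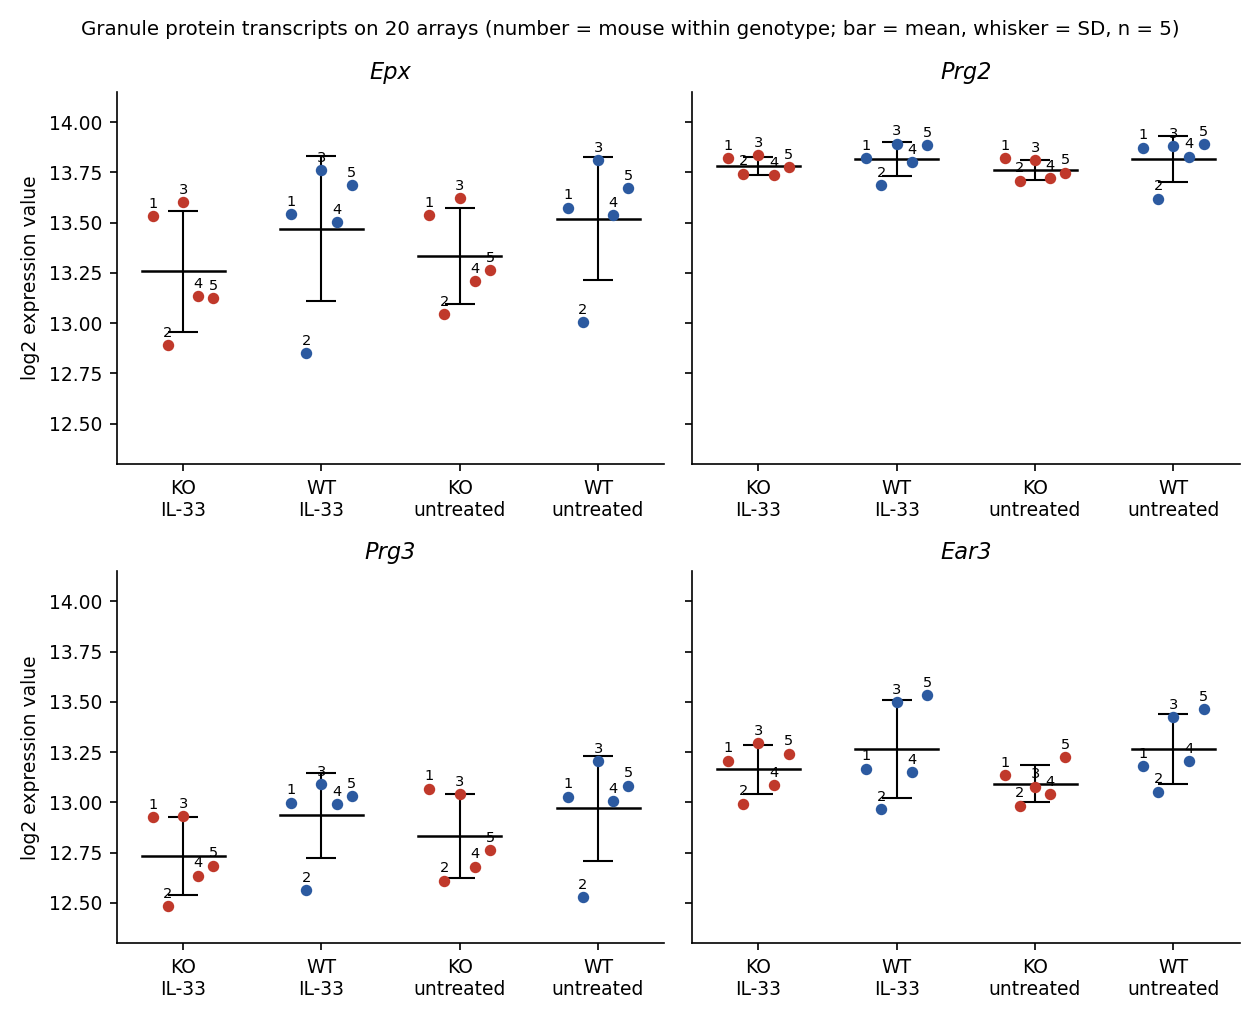
Log2 expression value (vertical axis) of Epx, Prg2, Prg3 and Ear3 on each of 20 arrays in the 4 groups, with the mouse number above each point, a bar for the mean and whiskers for the SD (n = 5). The groups overlap for all 4 transcripts, mouse 2 is the lowest WT point in every panel, and Prg2 lies in a narrow band between 13.62 and 13.89.

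The first comparison asks whether IL-33 changes the granule transcripts within 4 hours. None of the 4 was called in either genotype by limma at an adjusted p under 0.05, while 50.6% of all 12903 probe sets tested were called in KO cells and 41.2% in WT cells. Epx differed by -0.08 with IL-33 in KO cells (95% interval -0.45 to 0.29, limma adjusted p = 0.734) and by -0.05 in WT cells (-0.42 to 0.32, adjusted p = 0.842). Prg3 differed by -0.10 in KO cells (-0.38 to 0.17, adjusted p = 0.543) and by -0.03 in WT cells (-0.31 to 0.24, adjusted p = 0.857). The intervals of Prg2 were narrower, from -0.11 to 0.15 in KO cells and from -0.13 to 0.13 in WT cells, and those of Ear3 ran from -0.15 to 0.29 and from -0.22 to 0.22. On the linear scale the interval for Epx in KO cells reached 0.732-fold and 1.23-fold, and changes up to that size lie within the error of this fit. The fit does not pair the arrays by mouse, so its error holds the differences between mice. With the mouse as a block, as described below, the log2 interval for Epx in KO cells was narrower, -0.18 to 0.02. Without the block no member had an unadjusted p under 0.05 for IL-33 in either genotype.

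Since the arrays pair by mouse, the change within each mouse was also examined. Epx was lower with IL-33 than untreated in 9 of 10 mice, 5 of 5 KO and 4 of 5 WT, and so was Prg3. The changes were small, from -0.15 to 0.02 for Epx and from -0.14 to 0.04 for Prg3. Over all probe sets tested the median difference with IL-33 was also below 0, at -0.06 in KO cells and -0.04 in WT cells. How many other probe sets were lower in 9 of 10 mice was not counted, so the fall cannot be called particular to Epx and Prg3. Prg2 and Ear3 were higher with IL-33 in 7 of 10 mice, 5 of 5 KO and 2 of 5 WT. The directions of Prg2 in KO cells and Ear3 in WT cells depended on the scaling. With quantile normalization the mean difference of Prg2 in KO cells turned to -0.04. That of Ear3 in WT cells turned to 0.01, from a value of -0.00148 close to none. The mean differences of Epx and Prg3 kept their sign.

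With the mouse as a block, 63.3% of all probe sets were called for IL-33 in KO cells and 55.6% in WT cells, and again none of the 4 members. Prg3 in KO cells came nearest, at -0.10 with an interval of -0.19 to -0.01 (limma adjusted p = 0.0593, unadjusted p = 0.0385), followed by Epx in KO cells at -0.08 (-0.18 to 0.02, adjusted p = 0.159). The adjusted p of Prg3 was 0.0540 without WT mouse 3, the lowest when each mouse was left out of the blocked fit. Averaged over both genotypes within mice, a comparison chosen after the data were seen, Prg3 differed by -0.07 ± 0.03 (SE, adjusted p = 0.0656) and Epx by -0.06 ± 0.03 (adjusted p = 0.0952), against 70.5% of probe sets called. Prg2 stood at 0.01 ± 0.03 and Ear3 at 0.04 ± 0.03. Their intervals in this comparison were -0.14 to 0.01 for Epx and -0.13 to -0.000872 for Prg3.

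The next comparison asks what loss of Dusp5 does to these transcripts. All 4 had lower means in KO than in WT cells in both treatments, and none was called, against 2.12% of probe sets called after IL-33 and 0.0233% untreated. After IL-33 the difference was -0.21 for Epx (-0.58 to 0.16, limma adjusted p = 0.492), -0.20 for Prg3 (-0.48 to 0.07, adjusted p = 0.359), -0.10 for Ear3 (-0.32 to 0.12, adjusted p = 0.598) and -0.03 for Prg2 (-0.16 to 0.09, adjusted p = 0.772). In untreated cells it was -0.18 for Epx (adjusted p = 0.635), -0.14 for Prg3 (0.634), -0.17 for Ear3 (0.455) and -0.06 for Prg2 (0.689). The 2 comparisons of genotype are made on the same mice and are not independent. Proliferation markers lay lower in KO cells as well, with a median over 14 genes of -0.86 after IL-33 and -0.73 untreated and 0 of 14 called in either, and their part in the granule values was not tested.

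The size of the genotype difference depended on single mice, WT mouse 2 among them, whose low values brought the WT mean down. Without both of its arrays Epx was lower in KO cells after IL-33 by 0.37 on the log2 scale, a value of -0.37 ± 0.14 (SE, limma adjusted p = 0.0750), and Prg3 stood at -0.30 ± 0.11 (adjusted p = 0.0598). In untreated cells the values without that mouse were -0.31 ± 0.14 for Epx (adjusted p = 0.158) and -0.25 ± 0.11 for Prg3 (adjusted p = 0.145). Without it Ear3 stood at -0.17 after IL-33 and Prg2 at -0.07 after IL-33 and -0.11 untreated. Other mice moved the values the other way. Without KO mouse 2 Epx stood at -0.12 after IL-33 and -0.11 untreated, Prg3 at -0.08 untreated and Ear3 at -0.06 after IL-33. Without WT mouse 3 Epx stood at -0.14 after IL-33 and -0.11 untreated, Prg3 at -0.08 untreated, and Ear3 at -0.04 and Prg2 at -0.02 after IL-33. Without WT mouse 5 Ear3 stood at -0.03 and Prg2 at -0.02 after IL-33. The difference stayed below 0 in all 37 alternatives for each transcript in both treatments, and in none was it called. Leaving WT mouse 2 out also raised the number of all probe sets called after IL-33 to 2187, against 274 with it, and in untreated cells to 529, against 3.

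The difference of the IL-33 responses, KO minus WT, was not called for any member, and 0% of probe sets were called, although 609 of them had an unadjusted p under 0.05. It was -0.03 for Epx (-0.55 to 0.50), 0.02 for Prg2 (-0.16 to 0.20), -0.07 for Prg3 (-0.45 to 0.32) and 0.07 for Ear3 (-0.24 to 0.38), with limma adjusted p = 0.999 for each. With the mouse as a block the share called was 0.00775%, a single probe set that was no member. The blocked intervals were narrower, at -0.17 to 0.12 for Epx and -0.20 to 0.07 for Prg3.

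**Figure D2:**
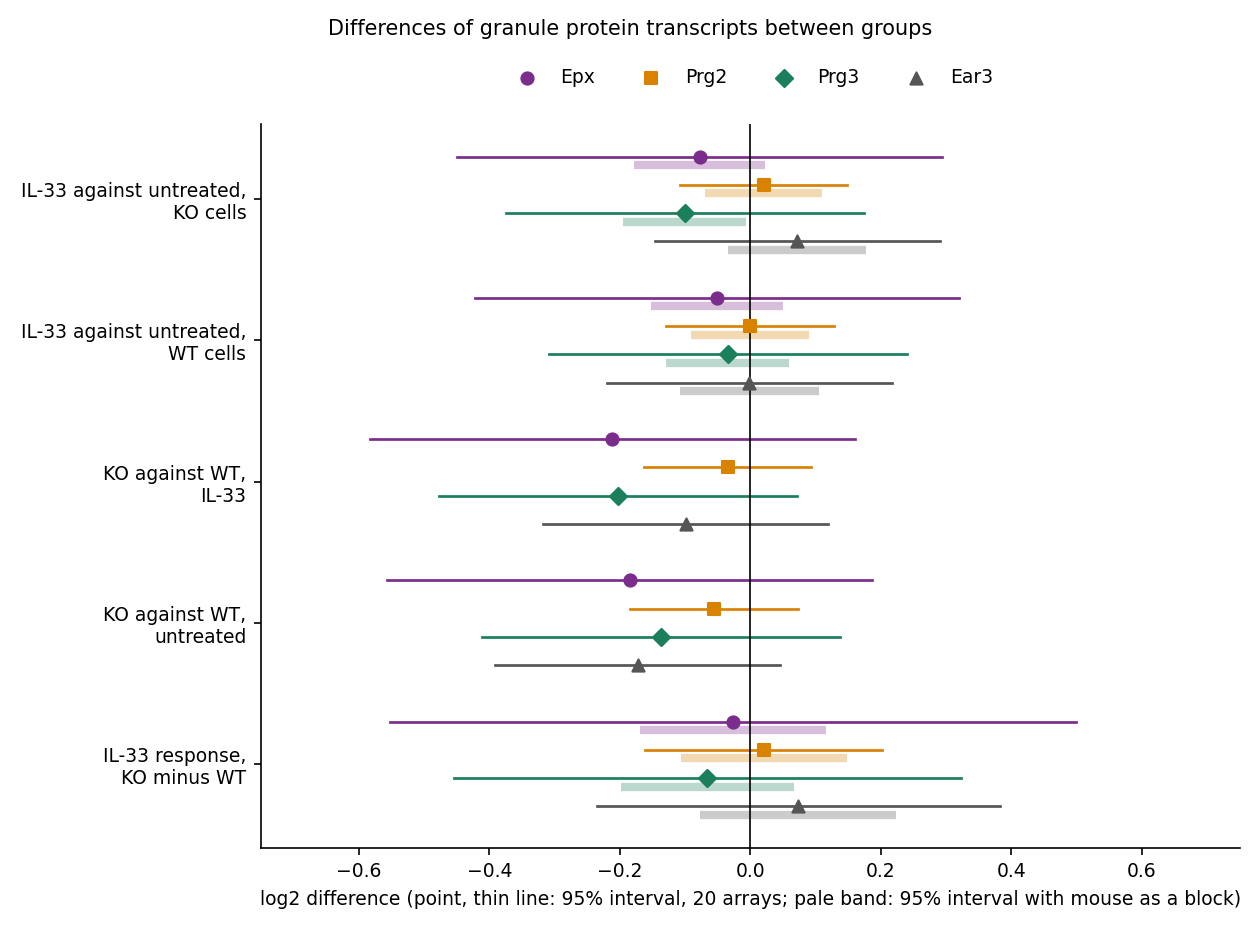
Log2 differences (horizontal axis) of Epx, Prg2, Prg3 and Ear3 in 5 comparisons, each the first-named group minus the second, with 95% intervals from 20 arrays as thin lines and, for comparisons made within mice, 95% intervals with the mouse as a block as pale bands. All thin lines cross 0, and the bands for IL-33 are narrower than the lines, with only that of Prg3 in KO cells (-0.19 to -0.01) lying wholly below 0.

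The spread between replicates was far from alike among the 4 transcripts. The SD within groups, pooled over the 4 groups, was 0.305 for Epx, a value above that of 91.0% of probe sets tested, 0.220 for Prg3 (75.0%), 0.168 for Ear3 (50.5%) and 0.0783 for Prg2 (3.74%), against a median of 0.168 over all. On the linear scale the mice ranged 1.84-fold for Epx, 1.54-fold for Prg3, 1.40-fold for Ear3 and 1.18-fold for Prg2. The deviations of Prg2 followed those of Epx with a slope of 0.242, and those of Prg3 followed Epx with a slope of 0.715.

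Almost all of this spread lay between mice and not between arrays of a mouse. A mouse here stands for its replicate number. The animal and any culture or handling shared by its 2 arrays cannot be told apart. KO mouse 2 and WT mouse 2 each had the lowest Epx of their genotype, with mean deviations of -0.33 and -0.57. Whether KO and WT mice of the same number shared a preparation was not tested. The permutation p below treat the 10 mice as independent, and the fits do not pair the genotypes by number. The intraclass correlation, which is the share of variance within groups that the 2 arrays of a mouse hold in common, was 0.977 for Epx, 0.976 for Prg3, 0.907 for Prg2 and 0.892 for Ear3, against a median of 0.424 over all probe sets tested. That of Epx was higher than in 99.3% of them. Over the 10 mice the deviation of Epx in the untreated array correlated with that in the IL-33 array at r = 0.995 (rho = 0.976, permutation p = 1e-05, the smallest 100000 resamples can give, adjusted over 4 transcripts 2e-05). The values were r = 0.988 for Prg3 (rho = 0.964, adjusted permutation p = 2e-05), r = 0.943 for Prg2 (rho = 0.927, 6.67e-05) and r = 0.940 for Ear3 (rho = 0.952, 0.00011). Without the 2 mice farthest from the median they were 0.981, 0.986, 0.877 and 0.875. A mouse that was low in its untreated array was thus low in its IL-33 array as well, by nearly the same amount.

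**Figure D3:**
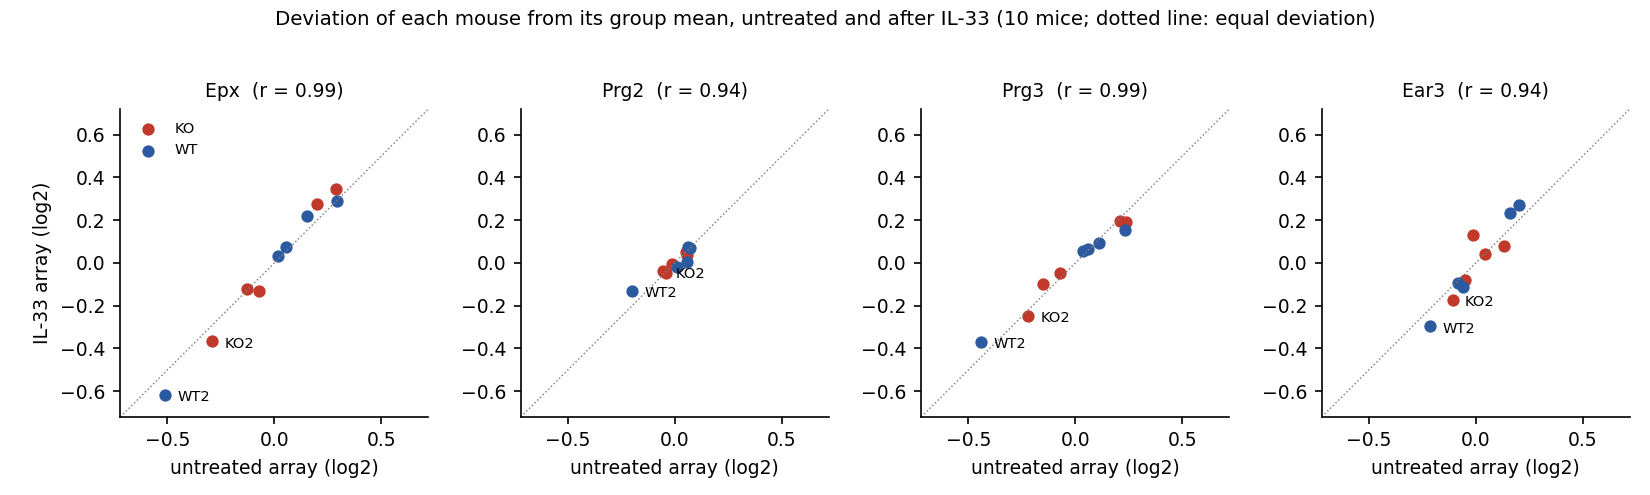
Deviation of each of 10 mice from its group mean (log2) in the IL-33 array (vertical axis) against the untreated array (horizontal axis) for the 4 transcripts, KO mice in red and WT mice in blue, with a dotted line of equal deviation. Points lie along the line in every panel (r = 0.995, 0.943, 0.988 and 0.940), and WT mouse 2 is at its lower end.

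Epx, Prg2 and Prg3 varied together across mice. With the deviations of a mouse averaged over its arrays, r was 0.992 between Epx and Prg3 (rho = 0.964, permutation p adjusted over 6 pairs 6e-05), 0.957 between Epx and Prg2 (rho = 0.915, 8e-05) and 0.951 between Prg2 and Prg3 (rho = 0.879, 8e-05). Without the 2 mice farthest from the median, KO mouse 2 and WT mouse 2, these were 0.973, 0.916 and 0.892. Within the 5 KO mice and the 5 WT mice Epx and Prg3 correlated at 0.988 and 0.996, values with no test. Ear3 followed them less closely, at r = 0.778 with Epx (rho = 0.685, adjusted permutation p = 0.00871), 0.830 with Prg2 (rho = 0.806, 0.00264) and 0.743 with Prg3 (rho = 0.636, 0.0135). The p given are those of r, and with rho the relation of Ear3 to Prg3 did not pass (adjusted permutation p = 0.0544). Without KO mouse 2 and WT mouse 2 the r values were 0.493, 0.667 and 0.404, so the relation of Ear3 to the others was weaker without those mice. Within the 5 KO mice they were 0.666, 0.695 and 0.692, and within the 5 WT mice 0.851, 0.862 and 0.801. None of these values was tested.

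Many other genes showed the same differences between mice. The first principal component of the mouse deviations held 56.5% of their variance over all probe sets tested, and it correlated over the 10 mice with Prg3 at 0.977, Epx at 0.969, Prg2 at 0.949 and Ear3 at 0.770. Of 12899 other probe sets tested 4.81% correlated with Epx at 0.9 or more and 4.37% at -0.9 or less. The shares at 0.9 or more were 5.88% for Prg3, 3.57% for Prg2 and 0.426% for Ear3. High correlations with Epx, Prg2 and Prg3 were thus common among other genes and are not particular to them. The shares of all probe sets with an r above or below 0 were not counted. The counts of positive and negative genes in the lists below therefore have no background value beside them.

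The genes most like Epx over the 10 mice were Mcfd2, a cargo receptor partner of the secretory pathway (r = 0.995), the lysosomal sulfatase Arsb (0.990), the glycosyltransferase Galnt1 (0.989), the glycolytic enzyme Pgk1 (0.988) and the nucleotidase Entpd5 of the endoplasmic reticulum (0.987). Most like Prg3 were the mitochondrial Chchd7 (0.995), the serine synthesis enzyme Phgdh (0.994), the phosphatase activator Ptpa (0.993), Mid1ip1, a regulator of lipogenesis (0.993), and Entpd5 (0.991). Most like Prg2 were the lipid acyltransferase Lclat1 (0.978), the N-glycosylation enzyme Dpagt1 (0.975), the replication helicase subunit Mcm3 (0.973), the transcription cofactor Taf6l (0.972) and the ribosomal protein gene Rps3a1 (0.971).

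Markers of cycling cells varied with the granule transcripts from mouse to mouse. All 14 tested genes of the proliferation list correlated positively with Epx, between 0.784 for Mki67 and 0.958 for Mcm2. The mean of the list correlated over 10 mice with Epx at r = 0.905 (rho = 0.855, permutation p adjusted over 32 relations 0.00198), with Prg2 at 0.933 (rho = 0.879, 0.00096), with Prg3 at 0.920 (rho = 0.915, 0.0016) and with Ear3 at 0.821 (rho = 0.697, 0.0174). These p belong to r, and with rho the relation to Ear3 did not pass (adjusted permutation p = 0.0971). Without the 2 farthest mice the values were 0.773, 0.859, 0.817 and 0.721. WT mouse 2, lowest for all 4 transcripts, had the lowest mean of these markers as well, 0.96 below its group mean on the log2 scale (-0.96), and KO mouse 1 and WT mouse 3 had the highest (0.70 and 0.64). Levels per array were averaged over the 15 genes of the list with a probe set, untested Tyms included. These means lay between 7.12 and 8.19 in KO cells with IL-33 and between 7.35 and 8.90 in WT cells with IL-33. They lay between 7.67 and 8.62 in untreated KO cells and between 7.89 and 9.32 in untreated WT cells.

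Surface and effector markers of eosinophils outside the granule went the other way. Of 11 such genes 10 correlated negatively with Epx, Alox15 among them at only -0.055. The eotaxin receptor Ccr3 did so at r = -0.950, Adgre4 at -0.950, the macrophage and eosinophil surface gene Adgre1 at -0.949 and the integrin Itgam at -0.934, Siglecf at -0.451, and the IL-5 receptor chain Il5ra at 0.042. The mean of the list correlated at -0.913 with Epx (rho = -0.915, adjusted permutation p = 0.00184), at -0.935 with Prg3 (rho = -0.952, 0.00096) and at -0.826 with Prg2 (rho = -0.758, 0.00715). These p too belong to r, and with rho the relation to Prg2 did not pass (adjusted permutation p = 0.0528). The r values were -0.883, -0.936 and -0.716 without the 2 farthest mice. With Ear3 it was -0.504 (rho = -0.442, adjusted permutation p = 0.34). Per array the list mean lay between 8.39 and 8.78 in KO cells with IL-33, between 8.24 and 8.65 in WT cells with IL-33, between 8.66 and 9.17 in untreated KO cells and between 8.55 and 9.12 in untreated WT cells.

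Of 13 monocyte, macrophage and dendritic markers 12 correlated negatively with Epx, from Csf1r at -0.965 to Cd74 at -0.572, and Marco stood at 0.375. Adgre1 is in this list and in the eosinophil list. The list mean correlated with Epx at -0.809 (rho = -0.855, adjusted permutation p = 0.0174), with Prg3 at -0.790 (rho = -0.842, 0.0229), with Prg2 at -0.747 (rho = -0.842, 0.0273) and with Ear3 at -0.573 (rho = -0.491, 0.226). Per array the mean of this list lay between 8.08 and 8.66 in KO cells with IL-33, between 8.25 and 8.64 in WT cells with IL-33, between 8.31 and 8.85 in untreated KO cells and between 8.23 and 8.78 in untreated WT cells. The means of neutrophil, mast cell and basophil, lymphocyte, erythroid, and stem and progenitor markers did not pass with any of the 4 transcripts, with adjusted permutation p between 0.143 and 0.991. Single genes of these lists went both ways with Epx, which a mean can hide, and their values carry no test. Neutrophil genes ran from -0.802 to 0.853 (5 positive, 9 negative) and stem and progenitor genes from -0.882 to 0.882 (4 and 5). Erythroid and megakaryocyte genes ran from -0.842 to 0.987 (4 and 2) and lymphocyte genes from -0.873 to 0.763 (2 and 4). Mast cell and basophil genes ran from -0.794 to 0.322 (4 and 5). In bulk RNA a smaller share of cells that express a gene and less of its RNA per cell cannot be told apart, and the part of cell composition in the granule values was not tested.

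**Figure D4:**
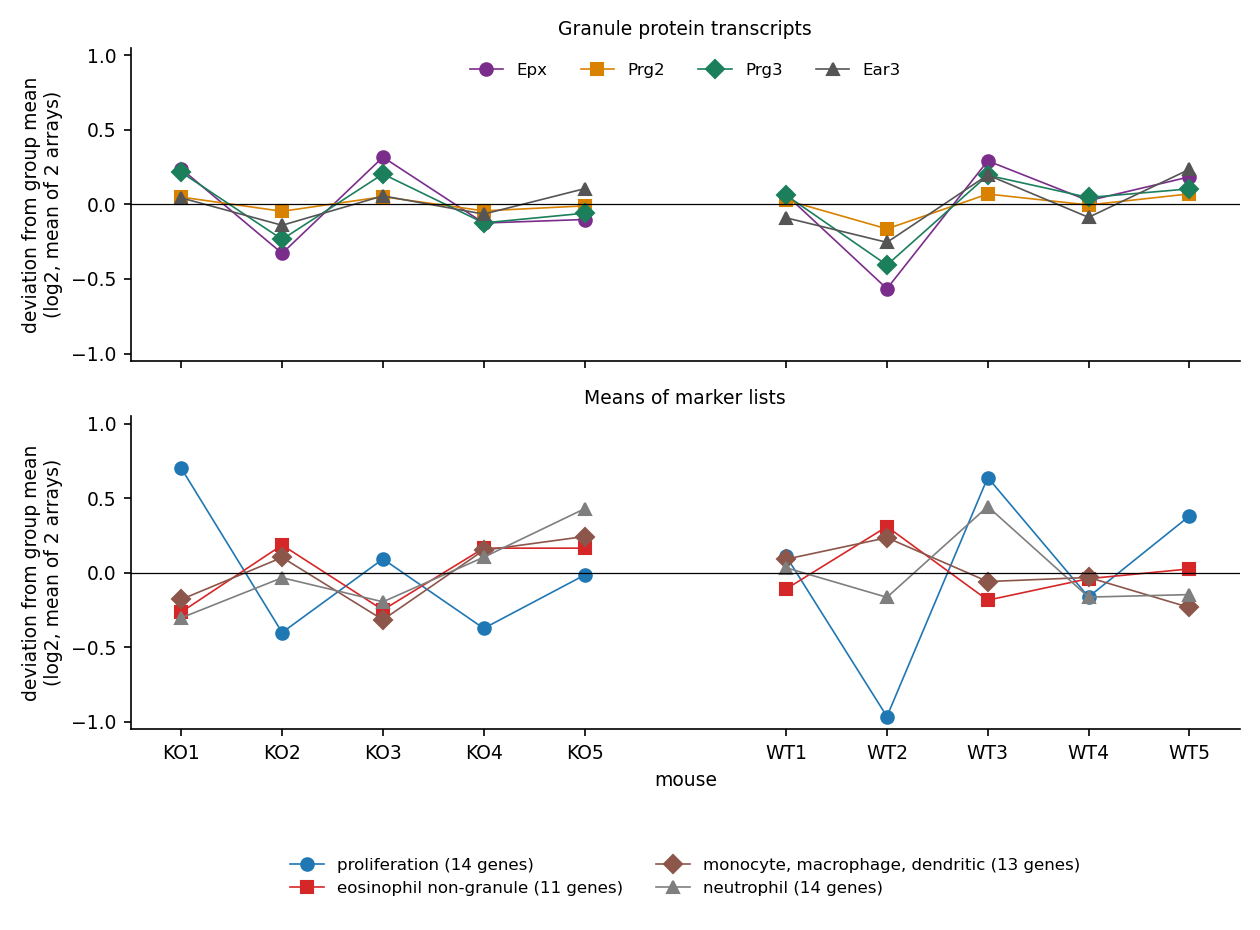
Deviation of each mouse from its group mean (log2, mean of its 2 arrays) for the 4 granule transcripts (upper panel) and for the means of 4 marker lists (lower panel), KO mice left and WT mice right. Proliferation markers follow the granule transcripts, with WT mouse 2 at -0.96, and the non-granule eosinophil markers run opposite to them.

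The factors known to govern granule genes were next followed. Of 17 tested regulators 4 rose and 5 fell with IL-33 in KO cells, and 4 rose and 6 fell in WT cells. Of all 12903 probe sets 50.6% were called in KO cells, 2431 higher and 4095 lower, and 41.2% in WT cells, 2025 higher and 3289 lower, and the counts of this and the following lists are to be read against these. The median change of the list was -0.06 in KO cells and 0.00 in WT cells, against -0.06 and -0.04 over all probe sets. Cebpb, a C/EBP factor induced by inflammatory signals, rose by 1.09 ± 0.08 in KO cells and 1.03 ± 0.08 in WT cells (SE, limma adjusted p = 4.45e-10 and 1.61e-09). The repressor Gfi1 fell by 1.51 ± 0.20 in KO cells and fell by 1.43 ± 0.20 in WT cells, and the progenitor factor Sox4 fell by 1.45 ± 0.21 in KO cells and fell by 1.06 ± 0.21 in WT cells. Gata1, named for its role in the lineage, rose by 0.24 ± 0.06 in KO cells and 0.26 ± 0.06 in WT cells (adjusted p = 0.00305 and 0.00161). Other regulators called in both genotypes included Cebpa, at -0.65 in KO cells and -0.54 in WT cells. The GATA cofactor Zfpm1 was called as well, at -0.33 in KO cells and -0.39 in WT cells. Gata2 stood at -0.11 in KO cells and -0.32 in WT cells, called in WT cells alone. Spi1, which encodes PU.1, stood at -0.02 ± 0.07 in KO cells and 0.12 ± 0.07 in WT cells, and Xbp1, a secretory pathway factor needed in eosinophil development, at -0.04 ± 0.12 in KO cells and 0.00 ± 0.12 in WT cells. No regulator was called between genotypes, where only 2.12% of all probe sets were called after IL-33 and 0.0233% untreated.

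Across mice Gata1 hardly followed Epx (r = 0.124), while Xbp1 and the GATA cofactor Zfpm1 did (0.910 and 0.896) and Cebpa and Trib1 ran opposite (-0.944 and -0.903). These genes and those named below for their correlation were chosen after their values were seen, and the values carry no test.

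Of 16 tested genes of granule exocytosis 1 rose and 8 fell in KO cells, and 0 rose and 7 fell in WT cells, with a median of -0.14 in KO cells and -0.23 in WT cells, against -0.06 in KO cells and -0.04 in WT cells over all probe sets. The shares called, 9 of 16 in KO cells and 7 of 16 in WT cells, lay near the 50.6% and 41.2% of all probe sets, among which falls outnumbered rises too. The Rab27 effector Sytl1 fell by 1.16 ± 0.16 in KO cells and fell by 0.99 ± 0.16 in WT cells (SE, limma adjusted p = 7.08e-06 and 6.78e-05). The SNARE gene Stx3 fell by 0.89 ± 0.07 in KO cells and fell by 0.83 ± 0.07 in WT cells, and Unc13d, which primes granules for fusion, fell by 0.68 ± 0.08 in KO cells and fell by 0.66 ± 0.08 in WT cells. Adam8 was the one that rose, in KO cells, by 0.25 ± 0.08 (adjusted p = 0.0131). Vamp2 and Vamp3 stood at 0.19 ± 0.14 and 0.24 ± 0.13 in KO cells. Across mice 14 of the 16 correlated negatively with Epx, with Snap23 at -0.951, and Stx3 at 0.954 was the strongest of the other two.

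Of 14 tested genes listed as other granule and secretory contents 3 rose and 7 fell in KO cells. In WT cells 2 rose and 7 fell. Medians were -0.30 in KO cells and -0.27 in WT cells, where all probe sets had medians of -0.06 in KO cells and -0.04 in WT cells. That is 10 of 14 called in KO cells and 9 of 14 in WT cells, against 50.6% and 41.2% of all probe sets, and the difference was not tested. Alox15 is in this list and in the eosinophil list, and whether each listed product is stored in the granule was not examined. S100a10, the annexin partner p11, fell by 1.86 ± 0.23 in KO cells and fell by 1.51 ± 0.23 in WT cells (SE, limma adjusted p = 1.15e-06 and 2.39e-05). The protease inhibitor Timp2 fell by 1.00 ± 0.10 in KO cells and fell by 0.86 ± 0.10 in WT cells, and Cst7, an inhibitor of lysosomal cathepsins, rose by 0.66 ± 0.10 in KO cells and by 0.56 ± 0.10 in WT cells. The acid phosphatase Acp2 was lower in KO than in WT cells after IL-33, at -0.29 (adjusted p = 0.0485), a call that 26 of 37 alternatives did not keep. Arsb, alike to Epx across mice, stood at -0.43 ± 0.38 with IL-33 in KO cells and -0.38 ± 0.38 in WT cells.

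Heme for the peroxidase is made by a chain of enzymes of which Alas1 is the first and rate-limiting one outside red cells. Of 8 tested genes of heme supply 1 rose and 4 fell in KO cells, and 1 rose and 3 fell in WT cells, with medians of -0.23 in KO cells and -0.22 in WT cells, against -0.06 in KO cells and -0.04 in WT cells over all probe sets. The 5 of 8 called in KO cells and 4 of 8 in WT cells lay near the 50.6% and 41.2% of all probe sets. Alas1 rose by 1.45 ± 0.11 in KO cells and by 1.25 ± 0.11 in WT cells (SE, limma adjusted p = 9.98e-10 and 1.34e-08). Urod fell by 0.95 ± 0.06 in KO cells and fell by 0.79 ± 0.06 in WT cells, and Alad fell by 0.47 ± 0.12 in KO cells and fell by 0.49 ± 0.12 in WT cells. Urod was also lower in KO than in WT cells after IL-33, at -0.28 (adjusted p = 0.0302), which did not pass in 17 of 37 alternatives. Across mice 6 of the 8 correlated positively with Epx, led by Alas1 (0.926) and Alad (0.889).

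Relatives of the granule proteins by sequence family were few on the array. Neither peroxidase paralogue tested was called, with Mpo at -0.41 ± 0.30 with IL-33 in KO cells and -0.18 ± 0.30 in WT cells, and Pxdn at 0.11 ± 0.12 in KO cells and -0.04 ± 0.12 in WT cells. Of 4 tested RNase A genes 2 fell in both genotypes, a share near the 50.6% of all probe sets called in KO cells and 41.2% in WT cells. Rnase4 fell by 1.09 ± 0.13 in KO cells and fell by 0.86 ± 0.13 in WT cells (SE, limma adjusted p = 6.36e-07 and 1.75e-05), and Rnase6 fell by 0.64 ± 0.14 in KO cells and fell by 0.66 ± 0.14 in WT cells. Across mice Rnase6 ran opposite to Epx (r = -0.955) and Ang4, which was not called, followed it (0.920).

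Of the 11 eosinophil markers outside the granule 2 rose and 5 fell with IL-33 in KO cells, and 1 rose and 5 fell in WT cells, against 50.6% of all probe sets called in KO cells and 41.2% in WT cells, with falls in excess there too. The prostaglandin receptor Ptger3 fell by 1.50 ± 0.14 in KO cells and fell by 1.38 ± 0.14 in WT cells (SE, limma adjusted p = 2.95e-08 and 1.58e-07). Il5ra fell by 1.08 ± 0.16 in KO cells and fell by 0.84 ± 0.16 in WT cells, the histamine receptor Hrh4 fell by 0.93 ± 0.17 in KO cells and fell by 0.85 ± 0.17 in WT cells, and Siglecf fell by 0.61 ± 0.15 in KO cells and fell by 0.71 ± 0.15 in WT cells. Ccr3 stood at -0.47 ± 0.35 in KO cells and -0.30 ± 0.35 in WT cells. Cd300lf was among those that rose with IL-33 in KO cells, by 0.33 to 0.47 over the alternatives, and 39 of 39 kept the call. After IL-33 the chemokine receptor Ccr1 was higher in KO than in WT cells by 0.64 and Cd300lf by 0.43 (adjusted p = 0.0388 and 0.0354), calls that 19 and 17 of 37 alternatives did not keep.

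Prg2 and Prg3 are neighbours on chromosome 2, and Epx lies on chromosome 11. The nearest tested gene before Prg2, the transporter gene Slc43a3, correlated with it over the 10 mice at 0.905 and rose with IL-33 by 1.08 in KO cells and 1.07 in WT cells (limma adjusted p = 0.0354 and 0.0447), calls that 9 and 14 of 39 alternatives did not keep. The nearest tested gene after Prg3, Tnks1bp1, correlated with Prg3 at 0.566 and was not called. On chromosome 11 the nearest tested genes were Mks1, at r = 0.071 with Epx, and the dynein light chain gene Dynll2, at 0.966. Mks1 fell by 0.21 in KO cells and fell by 0.18 in WT cells with IL-33 (limma adjusted p = 0.0116 and 0.0344), calls that 3 and 13 of 39 alternatives did not keep, and Dynll2 was not called.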

How the data were processed

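Total RNA of 20 samples was labelled with the Affymetrix 3′ IVT Express kit and hybridised to one-colour arrays, per the labels. The authors deposited 1 table of 20630 probe sets by 20 arrays. Its unit, log2 expression, was read from the deposited values. The labels used here do not state the background correction, summarization or normalization. The deposited numbers entered all fits unchanged (array medians 4.25 to 4.32).

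Gene names came from the platform annotation: 17826 probe sets had 1 symbol, 91 several and 2711 none, 2 controls aside, and 17675 were matched by gene number to RefSeq (GRCm38.p6). The gene number of Ear3 was not among them, so the platform's name was kept. A probe set was tested if it exceeded the array's 40th percentile (3.56 to 3.68) on at least 5 arrays. limma 3.58.1 (R 4.3.3; lmFit, eBayes) fitted 1 mean per group to all 20 arrays with 16 residual degrees of freedom. Adjusted p is Benjamini-Hochberg over the 12903 probe sets tested, and a call is an adjusted p under 0.05. The fit was tested on simulated arrays that were independent of each other and held no differences between mice, so that test does not bear on the pairing.

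The design text gives 5 mice per genotype. The replicate numbers pair the arrays: own-number correlations of deviations were 0.232 to 0.772, above those with any other number for 10 of 10 mice. For relations across mice, deviations from group means were averaged over the 2 arrays of a mouse and permuted 100000 times over all 10 mice, though they sum to 0 within a genotype. The number of arrays limits the precision.

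Members, lists and alternatives were chosen with earlier results of these data known. Named are all members, per list and comparison up to 3 called genes with the largest change and up to 2 not called, sequence paralogues, Siglecf, Ccr3, Il5ra, the 5 genes most like each of Epx, Prg2 and Prg3, and the nearest tested neighbours. Alternatives were other dim filters, quantile normalization, fixed and random mouse blocks, only the groups compared, trended and robust eBayes, 1 probe set per gene, and leaving out arrays or mice. List counts are over genes with a single-symbol probe set above the filter; Cebpe, Cd63 and Sytl3 had none.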

Additional observations from a re-analysis of the deposited data

Results flagged for a closer look

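In 3 of the 16 groups of 5 arrays examined the lowest array stood far from the rest: its gap to the next array, as a share of the group's range, exceeded Dixon's value of 0.71 for 5 samples. The share was 0.714 for Epx in WT cells with IL-33, 0.809 for Prg3 in WT cells with IL-33 and 0.773 for Prg2 in untreated WT cells. All 3 arrays were of WT mouse 2. Chance flags about 1 in 20 groups, and the transcripts and the arrays of a mouse are not independent of each other. Its deviation, averaged over both arrays, was -0.57 for Epx, -0.41 for Prg3, -0.25 for Ear3 and -0.16 for Prg2.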

How the results depend on the processing

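No member was called in any of 760 values of a member in a comparison under an alternative, and the lowest adjusted p was 0.0593 (Prg3, IL-33 in KO cells, replicate block). These values leave out the blocked fits without single mice, in which no member was called and the lowest adjusted p was 0.0540 (Prg3, IL-33 in KO cells, without WT mouse 3). The replicate block, paired by mouse, changed no member's call. The sign turned in 37 of these values, all of them uncalled, and 33 came from leaving out arrays. With quantile normalization Prg2 with IL-33 in KO cells was -0.0410 and Ear3 with IL-33 in WT cells 0.0109, with the replicate block and without it, and the cause was not tested. Leaving out arrays or mice, the IL-33 difference in KO cells ranged from -0.164 to 0.0138 for Epx. In WT cells it ranged from -0.179 to 0.103 for Epx, -0.0501 to 0.0321 for Prg2, -0.145 to 0.0581 for Prg3 and -0.0689 to 0.0728 for Ear3. The difference of responses ranged from -0.181 to 0.102 for Epx, -0.0119 to 0.0703 for Prg2, -0.158 to 0.0448 for Prg3 and -0.000878 to 0.141 for Ear3.

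The number of all probe sets called after IL-33 between genotypes was 274, and 156 without a dim filter, 472 with the filter at the 60th percentile, 477 with a random block, 27 with only the groups compared and 27 to 2187 on leaving out arrays or mice. Untreated it was 3, and 3 to 529 on leaving them out. For the difference of responses it was 0, and 1 with the fixed replicate block, 2 with that block and quantile normalization, and 29 with the random block. The called genes that are no members kept their sign in all 2094 values and their call in 1975. Signal near the top of the array scale limits what Prg2 and Epx can show.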
